A study of Mus musculus with 6 samples.

Results

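The genes described here encode the extracellular ligands, receptors, secreted antagonists and R-spondin arm of Wnt signalling, together with its intracellular transducers, TCF factors and commonly used target genes. They were chosen by symbol from the deposited count table, as every column that names a Wnt, Fzd, Sfrp, Dkk, Rspo, Lgr4 to Lgr6, Lrp5 or Lrp6, Axin, Nkd, TCF or LEF gene, or Notum, Wif1, Znrf3, Rnf43, Ctnnb1 or Apc. The pattern matched 52 of 19060 gene columns, and 51 of the 52 passed the filter on low counts. RNA of the proximal incisor, the growing end of the tooth, was sequenced from 3 control and 3 mutant samples of mice aged 1 month. The control mice carried Fgfr1fl/fl, both alleles of the FGF receptor Fgfr1 flanked by loxP sites, without Cre, and are labelled wild type. The mutant mice carried Gli1CreER;Fgfr1fl/fl (Gli1-Cre;Fgfr1fl/fl in the labels), in which a tamoxifen-inducible Cre is expressed from Gli1, a gene active in incisor mesenchymal stem cells. Tamoxifen was injected in both groups, and incisors were collected 1 week later. Cre acts only in Gli1+ cells, so the RNA came from a mixture of recombined and unrecombined cells. The labels do not say whether the samples of a group came from separate animals, so p-values measure the spread between these samples.

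Wnt ligands are lipid-modified secreted proteins that bind a Frizzled receptor and the co-receptor Lrp5 or Lrp6, which stops the Axin, Apc and GSK3 complex from degrading beta-catenin. Beta-catenin then enters the nucleus and binds TCF and LEF factors, and the genes switched on include brakes on the pathway itself, such as Axin2, Notum, Nkd1 and Znrf3. In the continuously growing mouse incisor, Wnt ligands are made by both dental epithelium and mesenchyme, and Axin2 is widely used as a readout of the pathway.

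RefSeq promoter windows on GRCm38.p6, from 250 bases before to 50 bases after the start of a gene, were found for 35 of the 52 genes. Both strands were searched for the core that TCF factors bind, CTTTG followed by A or T in each of the next 2 positions, and 3 of the 35 windows held at least 1 of them (8.57%), against 16.9% of 32544 windows of the same length. Those 3 were Dkk1, Fzd7 and Wnt11, and the windows of Axin2, Tcf7, Tcf7l1 and Wnt3a, which were lower in mutant incisors, held none. No match says only that these letters are not in this window. The windows of Axin2 and Wnt3a are shown because both genes fell in mutant incisors, and that of Dkk1 because it holds the motif in 2 places, in capitals. The Axin2 window lies at chr11:108920099-108920398 on the plus strand, that of Wnt3a at chr11:59290702-59291001 on the minus strand, and that of Dkk1 at chr19:30549447-30549746 on the minus strand.
Axin2: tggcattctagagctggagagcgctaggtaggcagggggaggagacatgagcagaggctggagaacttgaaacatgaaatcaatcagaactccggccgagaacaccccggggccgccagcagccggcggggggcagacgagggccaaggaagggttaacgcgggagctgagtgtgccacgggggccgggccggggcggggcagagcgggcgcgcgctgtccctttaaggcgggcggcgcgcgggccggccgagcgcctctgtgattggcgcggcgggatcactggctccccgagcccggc
Wnt3a: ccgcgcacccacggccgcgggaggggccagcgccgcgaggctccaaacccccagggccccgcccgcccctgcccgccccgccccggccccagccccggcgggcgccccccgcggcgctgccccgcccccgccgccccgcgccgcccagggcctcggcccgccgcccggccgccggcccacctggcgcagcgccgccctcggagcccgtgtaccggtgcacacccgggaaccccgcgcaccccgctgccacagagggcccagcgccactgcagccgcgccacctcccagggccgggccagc
Dkk1: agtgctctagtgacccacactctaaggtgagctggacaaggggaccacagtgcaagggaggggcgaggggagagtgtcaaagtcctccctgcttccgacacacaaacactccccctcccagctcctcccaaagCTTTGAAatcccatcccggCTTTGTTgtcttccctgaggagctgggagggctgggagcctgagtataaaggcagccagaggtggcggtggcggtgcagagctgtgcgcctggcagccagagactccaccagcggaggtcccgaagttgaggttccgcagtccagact

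The libraries differed in depth with genotype. Total counts ran from 31060222 to 32712448 in control and from 5276557 to 11819576 in mutant samples. Depth, and any other difference between the libraries that went with it, therefore cannot be told apart from genotype, at high counts as well as near 0. Fgfr1, the deleted gene, had 529, 924 and 434 CPM (counts scaled by their upper quartile to a common library size) in control samples 1, 2 and 3 and 148, 318 and 262 CPM in mutant samples 1, 2 and 3. The highest mutant value was under the lowest control value (edgeR quasi-likelihood test, log2 change -1.37, SE 0.40, unadjusted p = 0.00846, adjusted p = 0.0881). Gli1 itself gave a log2 change of -0.45 (unadjusted p = 0.303), and the groups overlapped. Markers of dental mesenchyme (11 genes) summed to 891 to 1036 CPM in control and 827 to 972 CPM in mutant samples, and those of dental epithelium and ameloblasts (14 genes) to 87593 to 123806 CPM in control and 36313 to 76475 CPM in mutant samples, without overlap. Amelx and Ambn, which encode enamel matrix proteins, made up most of that sum, and the other 12 genes summed to 5269 to 10213 CPM in control and 5337 to 10806 CPM in mutant samples, with overlap. Of those 14 epithelial genes, 2 rose and none fell past the threshold given below, and Krt14 and Krt5 lay below control in every mutant sample while Epcam did not. Skeletal muscle markers (9 genes) summed to 9.03 to 2826 CPM in control and 166 to 6901 CPM in mutant samples. Erythroid markers (7 genes) summed to 380.3 to 834 CPM in control and 926 to 2560.1 CPM in mutant samples, without overlap. Of the 6 erythroid genes tested, Hba-a2 and Hbb-bs rose past the threshold (log2 change 1.36 and 1.81) and Hba-a1 fell (-2.04). Their median log2 change was 0.61, and -0.33 with the length and GC correction described below. With it, Hba-a2 stood at -0.20, Hbb-bs at 0.23 and Hba-a1 at -3.18. The sum therefore does not speak for each erythroid gene. The part of these differences in the values below was not tested, and in bulk tissue fewer cells of a type and less RNA per cell cannot be told apart.

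In mutant incisors, 8 of the 51 Wnt genes fell past the study's threshold of an unadjusted p under 0.05 and a change over 1.5-fold, and none rose. They were the ligands Wnt10a and Wnt3a, the receptors Fzd2 and Fzd6, the Wnt-inactivating enzyme Notum, the target gene Axin2 and the TCF factors Tcf7 and Tcf7l1. Their fold changes ran from 1.57-fold lower for Tcf7l1 to 2.37-fold lower for Notum, and for each of them no mutant sample reached the lowest control sample. The 8 genes are 15.7% of the 51, beside 8.92% of all 15826 genes tested that fell and 10.9% that rose past the same threshold, or 19.8% in both directions. After Benjamini-Hochberg adjustment over all genes, none of the 51 had an adjusted p under 0.05 with edgeR, beside 6.79% of all genes, or 3.06% that were lower. At an unadjusted p under 0.05 edgeR gave 8. At an adjusted p under 0.05 DESeq2 gave 1 (Tcf7), beside 1609 of all 15826 genes, and limma-voom none, beside 1340. All 8 genes kept their direction in 16 of 16 alternatives. Without control replicate 3, however, none of the 8 passed the threshold, and once the counts were corrected for transcript length and GC content 1 of them (Tcf7) did.

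**Figure D1:**
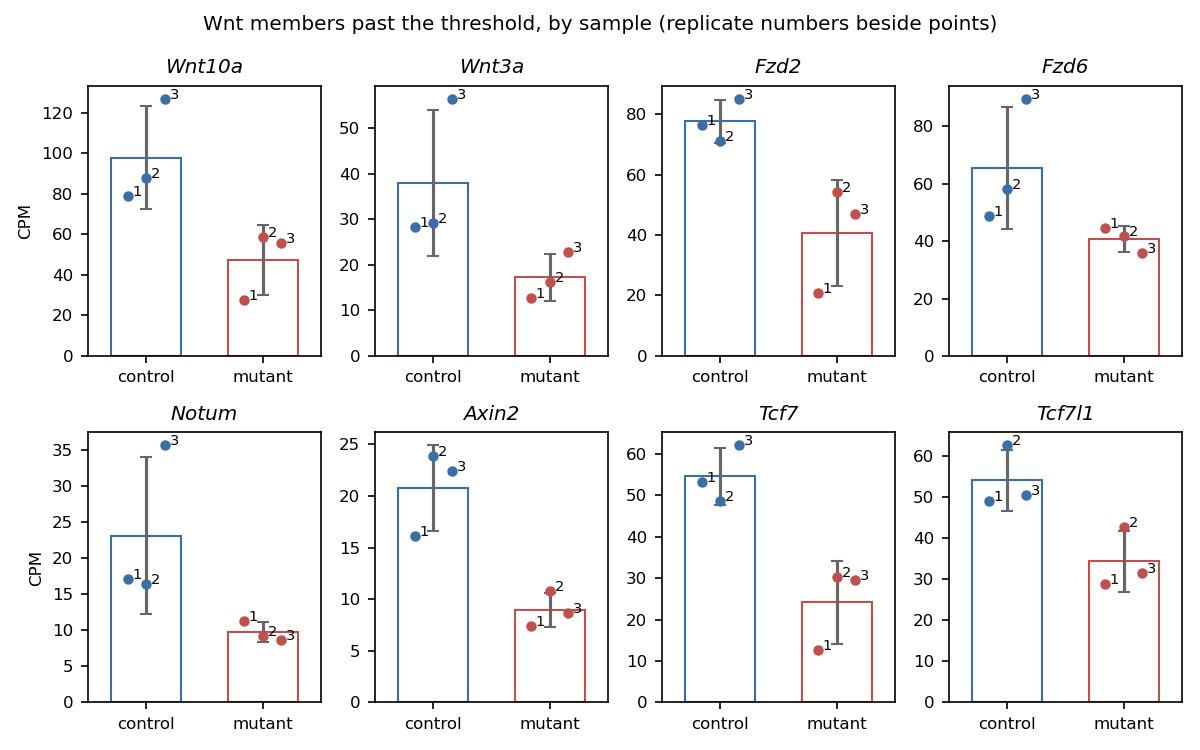
CPM of the 8 Wnt genes that fell past the threshold, in the 3 control (blue) and 3 mutant (red) samples, with replicate numbers beside the points, bars at the group mean and error bars of 1 SD. No mutant sample reaches a control sample in any of the 8 panels, and control sample 3 is the highest control in 6 of them.

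Over the 51 genes the median log2 change was -0.21, beside -0.040 over all genes tested, and 35 of the 51 had a value below 0, beside 8204 of 15826 genes. Mutant samples lay entirely below control samples for 12 of the 51 genes and entirely above for 1, beside 16.3% and 14.1% of all genes, or 30.4% in both directions. The 12 were the 8 genes named above with Ctnnb1, Nkd1, Znrf3 and Fzd8, and the 1 was Wnt10b. Control sample 3 was the highest control for 6 of the 8 genes that fell and for 14 of the other 43, and mutant sample 1, the shallowest library, was the lowest mutant for 6 of the 8 and 19 of the other 43. The epithelial marker sum was also highest in control sample 3.

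**Figure D2:**
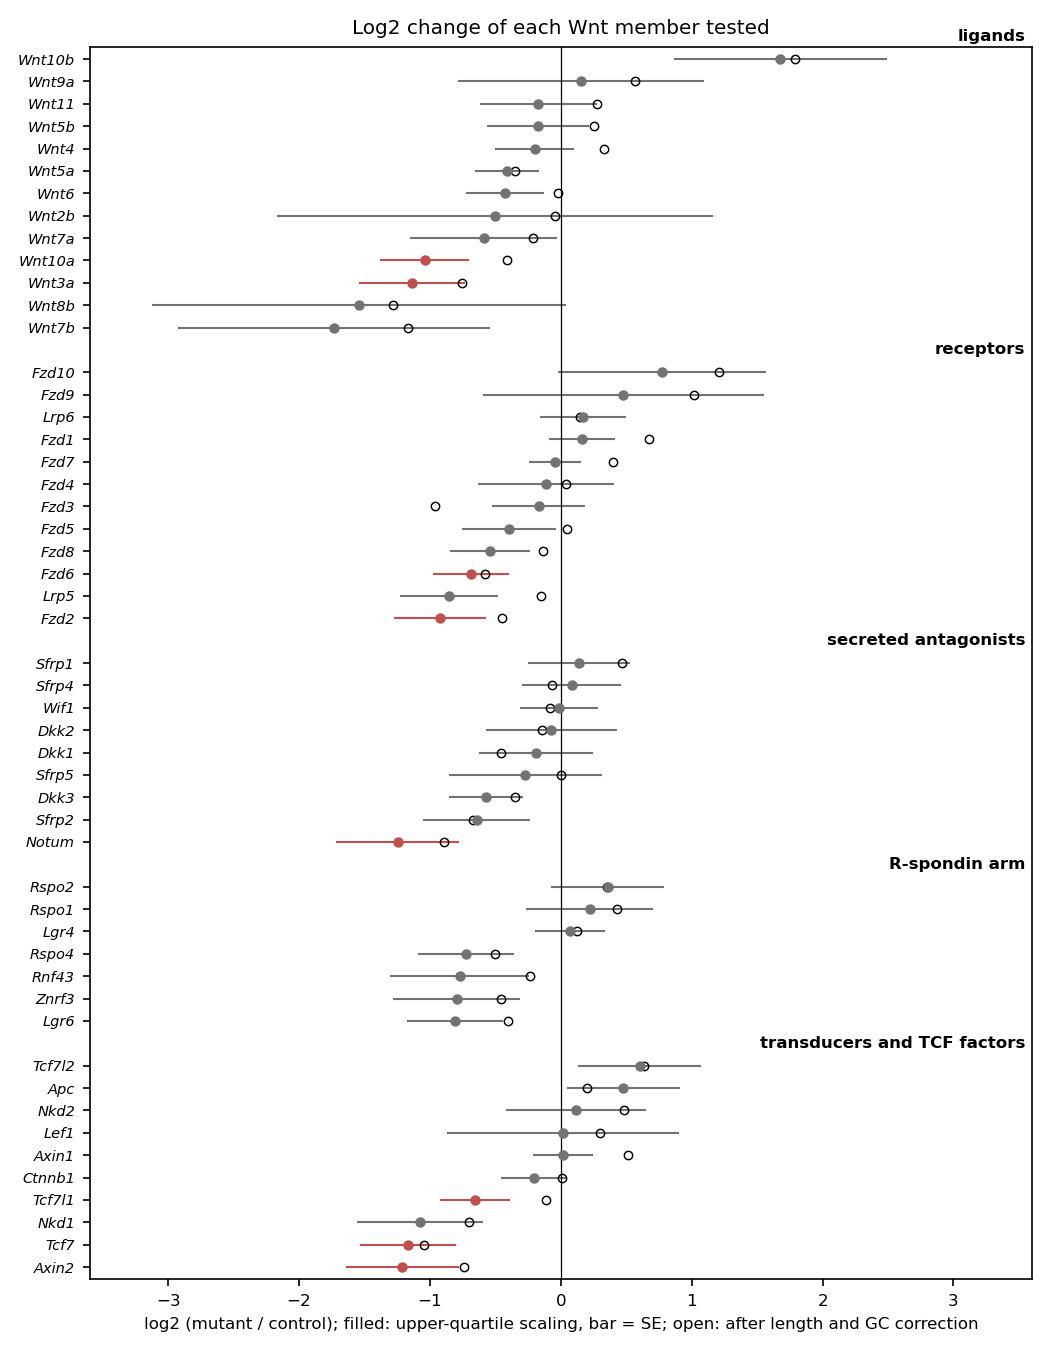
Log2 change (mutant over control) of the 51 Wnt genes tested, by role, with filled points and SE bars from upper-quartile scaling, red where past the threshold, and open points after the length and GC correction. The red points lie between -1.25 and -0.65, and their open points lie closer to 0 in all 8 cases.

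Among the ligands, Wnt10a and Wnt3a fell, and the other 11 tested did not pass the threshold. Wnt10a, which signals through beta-catenin and is mutated in inherited tooth agenesis in people, had 78.9, 87.8 and 127 CPM in control samples 1, 2 and 3 and 27.5, 58.7 and 55.9 CPM in mutant samples 1, 2 and 3. Its mean was 97.9 ± 25.5 CPM in control and 47.4 ± 17.3 CPM in mutant samples (SD, n = 3), 2.06-fold lower (log2 change -1.04, SE 0.34; edgeR unadjusted p = 0.0155, adjusted p = 0.126). Mutant sample 1 was lowest and control sample 3 highest, and the groups did not overlap. After the length and GC correction the log2 change of Wnt10a was -0.41 (unadjusted p = 0.221), and its transcript has the highest GC content of the 51, 63.78%.

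Wnt3a, a classical activator of beta-catenin signalling, had 28.3, 29.1 and 56.4 CPM in control and 12.7, 16.1 and 22.9 CPM in mutant samples. The log2 change was -1.13 (SE 0.41; edgeR unadjusted p = 0.0227, adjusted p = 0.158), 2.20-fold lower, and -0.75 (unadjusted p = 0.0892) after the length and GC correction. Control sample 3 stood at almost the level of both other controls added together, and without it the log2 change was -0.73 and no longer past the threshold.

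The most abundant ligand by CPM was Wnt5a, which acts mainly outside the beta-catenin branch. It had 162, 196 and 130.1 CPM in control and 105, 139 and 124 CPM in mutant samples, and the groups overlapped (log2 change -0.41, SE 0.25; edgeR unadjusted p = 0.134). Wnt6, a ligand of dental epithelium, had 99.9, 94.1 and 155 CPM in control and 61.1, 98.8 and 99.4 CPM in mutant samples (log2 change -0.43, SE 0.30; edgeR unadjusted p = 0.189). Mutant samples 2 and 3 fell among the controls. Wnt6 and Wnt10a are neighbours on chromosome 1 in the same orientation, at chr1:74771892-74785322 and chr1:74791516-74804179 of GRCm38, 6.19 kb apart. Wnt3a and Wnt9a are neighbours in opposite orientation on chromosome 11, at chr11:59248033-59290752 and chr11:59306928-59333552, and Wnt9a had a log2 change of 0.15 against -1.13 for Wnt3a. Neither difference between neighbours was tested.

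Wnt10b, a close relative of Wnt10a, was the 1 gene of the 51 with every mutant sample above every control sample. It had 1.66, 3.46 and 2.8 CPM in control and 12.4, 9.05 and 3.93 CPM in mutant samples, 3.19-fold higher in the mean without passing the threshold (log2 change 1.68, SE 0.81; edgeR unadjusted p = 0.0729, adjusted p = 0.305). Its level was low in both groups, and the range of its log2 change over all alternatives was 1.28 to 2.01. The remaining ligands Wnt4, Wnt5b, Wnt7a, Wnt9a and Wnt11 had p-values from 0.321 to 0.875 and log2 changes between -0.59 and 0.15. Wnt7b, Wnt2b and Wnt8b had a count of 0 in at least 1 mutant library, where 3 counts are 0.256 to 0.655 CPM. Wnt7b had 7.95, 11.8 and 24.3 CPM in control and 0, 9.65 and 3.33 CPM in mutant samples (edgeR unadjusted p = 0.184). Wnt2 was not tested, with 4, 1 and 4 counts in control libraries and 25, 0 and 0 counts in mutant libraries. Summed over the 14 ligands, CPM was 510.4, 560.2 and 669 in control and 323, 444 and 461 in mutant samples, without overlap. Of all single genes tested, 16.3% lay entirely below control. The sum weighs the abundant ligands most and was not corrected for length and GC content. The median log2 change of the 13 ligands tested was -0.43, beside -0.040 over all genes. After the length and GC correction it was -0.041, beside -0.12. The sum of the 10 intracellular genes did not overlap between the groups either (1161 to 1292 CPM in control, 1046 to 1104 CPM in mutant samples). Ctnnb1 alone made up 906 to 995 CPM of that sum in control and 807 to 832 CPM in mutant samples. That sum therefore says little about the other intracellular genes. The sums of the receptors (521 to 683 against 469 to 588 CPM), the R-spondin arm (597 to 871 against 398 to 704 CPM) and the secreted antagonists (890.5 to 1216 against 710.1 to 972 CPM) overlapped.

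Among the 12 receptors and co-receptors, Fzd2 and Fzd6 fell and the other 10 did not pass the threshold. Fzd2, a Frizzled receptor with a single coding exon at chr11:102604396-102608058, had 76.4, 71.2 and 85.1 CPM in control and 20.95, 54.3 and 46.9 CPM in mutant samples. The controls lay close together, and mutant sample 1 was far below mutant samples 2 and 3. The log2 change was -0.92 (SE 0.35; edgeR unadjusted p = 0.0292, adjusted p = 0.183) and -0.45 (unadjusted p = 0.209) after the length and GC correction. Fzd6, at chr15:39006034-39038188, takes part in planar cell polarity and is needed for nail growth. It had 48.8, 58.3 and 89.6 CPM in control and 44.7, 41.9 and 35.8 CPM in mutant samples (log2 change -0.69, SE 0.29; edgeR unadjusted p = 0.0446, adjusted p = 0.233). The gap between the lowest control and the highest mutant sample was small, and without control replicate 3 its log2 change was -0.39. Fzd6 passed the threshold in 7 of 16 alternatives, the fewest among the 8 genes.

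Fzd7, Fzd1 and Lrp6, the receptors with the highest mean CPM over all 6 samples, overlapped between the groups and did not pass the threshold. In control samples alone, Fzd2 (77.6 CPM) and Fzd6 (65.6 CPM) stood above Lrp6 (61.5 CPM). Fzd7, the most abundant Frizzled, had 106, 104 and 120.4 CPM in control and 108, 102 and 111 CPM in mutant samples (log2 change -0.04, SE 0.20; edgeR unadjusted p = 0.835). Fzd1 had 82.4, 89.0 and 65.3 CPM in control and 109, 87.5 and 68.7 CPM in mutant samples (log2 change 0.16, SE 0.25; edgeR unadjusted p = 0.536), and its value was 0.67 with unadjusted p = 0.0303 after the length and GC correction. The co-receptor Lrp6 had 40.3, 83.9 and 60.4 CPM in control and 69.4, 87.3 and 50.9 CPM in mutant samples, and the groups overlapped (edgeR unadjusted p = 0.620). Its paralogue Lrp5 lay just outside the threshold, with 41.4, 82.5 and 55.7 CPM in control and 20.95, 45.7 and 32.2 CPM in mutant samples. The log2 change of Lrp5 was -0.85 (SE 0.37; edgeR unadjusted p = 0.0513, adjusted p = 0.252), and it was past the threshold in 9 of 16 alternatives. After the length and GC correction the log2 change was -0.15 for Lrp5 (edgeR unadjusted p = 0.553) and 0.15 for Lrp6. The difference between Lrp5 and Lrp6 was not tested. Fzd8 was lower in every mutant sample without passing the threshold (log2 change -0.54, unadjusted p = 0.115). Fzd3, which has a transcript of 12734 bases with a GC content of 40.27%, moved from a log2 change of -0.17 to -0.96 (unadjusted p = 0.00874) after the correction. Fzd4, Fzd5, Fzd9 and Fzd10 had p-values from 0.304 to 0.834.

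Of the 9 secreted antagonists 1 fell, Notum, an enzyme that strips the lipid from Wnt ligands and is itself a target of the pathway. Notum, at chr11:120653788-120661175, had 17.2, 16.5 and 35.6 CPM in control and 11.3, 9.22 and 8.67 CPM in mutant samples. Control sample 3 was high, while the mutant samples lay close together below all controls. The mean was 23.1 ± 10.9 CPM in control and 9.75 ± 1.42 CPM in mutant samples (SD, n = 3), with a log2 change of -1.25 (SE 0.47; edgeR unadjusted p = 0.0278, adjusted p = 0.178). The length and GC correction gave -0.89 (unadjusted p = 0.0721), and the fit without control replicate 3 gave -0.79. Notum was also not past the threshold with limma-voom, with a term for replicate number, and without mutant replicate 2 or 3.

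The abundant antagonists did not pass the threshold. Wif1, which binds Wnt ligands outside the cell, had 542, 357 and 529 CPM in control and 554, 344 and 516 CPM in mutant samples, with a log2 change of -0.02 (SE 0.30; edgeR unadjusted p = 0.959). Sfrp2, a secreted protein with a Frizzled-like domain, had 441, 289 and 152 CPM in control and 253, 170.4 and 142 CPM in mutant samples (log2 change -0.64, SE 0.41; edgeR unadjusted p = 0.153). Its spread among the controls (SD 145 CPM) was larger than the distance between the group means of 294 and 188 CPM. Dkk3, a divergent member of the Dickkopf family, had 112, 127 and 77.8 CPM in control and 53.0, 87.9 and 72.2 CPM in mutant samples (log2 change -0.57, SE 0.28; edgeR unadjusted p = 0.0772). Sfrp1, Sfrp4, Sfrp5, Dkk1 and Dkk2 had log2 changes from -0.27 to 0.14 with p-values from 0.657 to 0.889. Dkk1, which blocks Lrp5 and Lrp6 and is a target of the pathway, was among these, at 23.3, 19.9 and 40.9 CPM in control and 15.1, 22.9 and 35.5 CPM in mutant samples.

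None of the 7 genes of the R-spondin arm passed the threshold. Their median log2 change was -0.72, beside -0.040 over all genes, and -0.24 after the length and GC correction, beside -0.12. R-spondins bind Lgr receptors and remove the ubiquitin ligases Znrf3 and Rnf43, which otherwise clear Frizzled receptors from the membrane. Rspo4, the R-spondin required for nails, was by far the most abundant, with 728, 651 and 436 CPM in control and 296, 550.1 and 253 CPM in mutant samples. Mutant sample 2 lay above control sample 3, and the log2 change was -0.72 (SE 0.37; edgeR unadjusted p = 0.0847, adjusted p = 0.331). Lgr6 had 36.4, 60.2 and 47.7 CPM in control and 17.7, 24.8 and 39.6 CPM in mutant samples (log2 change -0.81, SE 0.37; edgeR unadjusted p = 0.0580). Lgr4 had 48.8, 63.2 and 52.0 CPM in control and 41.0, 65.8 and 64.7 CPM in mutant samples (log2 change 0.07, SE 0.27; edgeR unadjusted p = 0.805). The groups overlapped for both Lgr genes. The ligases Znrf3 and Rnf43 gave log2 changes of -0.80 (unadjusted p = 0.139) and -0.77 (unadjusted p = 0.184), and every mutant sample was below control for Znrf3 only. Rspo1 and Rspo2 had log2 changes of 0.22 and 0.36, with p-values of 0.659 and 0.431.

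Inside the cell, Axin2, Tcf7 and Tcf7l1 fell and the other 7 of 10 genes did not pass the threshold. Axin2, at chr11:108920349-108950783, had 16.1, 23.9 and 22.4 CPM in control and 7.42, 10.8 and 8.67 CPM in mutant samples. Every mutant sample lay below every control sample, with a mean of 20.8 ± 4.13 CPM in control and 8.95 ± 1.69 CPM in mutant samples (SD, n = 3). Axin2 was 2.31-fold lower (log2 change -1.21, SE 0.43; edgeR unadjusted p = 0.0219, adjusted p = 0.155), and -0.74 on the log2 scale (unadjusted p = 0.0767) after the length and GC correction. Axin2 was also not past the threshold with limma-voom, with a term for replicate number, and without control replicate 2 or 3. Its paralogue Axin1, which does the same job in the destruction complex without being a target gene, had 44.2, 43.9 and 46.1 CPM in control and 42.3, 42.7 and 50.5 CPM in mutant samples (log2 change 0.02, SE 0.23; edgeR unadjusted p = 0.946). The difference between Axin1 and Axin2 was not tested, and the corrected value of Axin1 was 0.52.

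Tcf7, at chr11:52252371-52283014, encodes TCF1, a DNA-binding partner of beta-catenin that is also a target of the pathway. It had 53.2, 48.5 and 62.1 CPM in control and 12.7, 30.2 and 29.6 CPM in mutant samples, and the mutant samples all lay well under the lowest control. Tcf7 was 2.25-fold lower (log2 change -1.17, SE 0.37; edgeR unadjusted p = 0.0125, adjusted p = 0.112), the smallest p of the 51 genes. The correction for length and GC content left it at -1.05 (unadjusted p = 0.0219), and it was past the threshold in 15 of 16 alternatives, failing without control replicate 3. Tcf7l1, at chr6:72626378-72789254, encodes TCF3, which mostly represses target genes. It had 49.1, 62.7 and 50.7 CPM in control and 28.8, 42.9 and 31.4 CPM in mutant samples (log2 change -0.65, SE 0.27; edgeR unadjusted p = 0.0396, adjusted p = 0.218). The corrected log2 change of Tcf7l1 was -0.11 (unadjusted p = 0.614), and it was past the threshold in 9 of 16 alternatives. The other members of the TCF and LEF family, Tcf7l2 and Lef1, were not lower in the mean. Tcf7l2 had 17.7, 28.0 and 21.1 CPM in control and 59.1, 19.6 and 23.4 CPM in mutant samples, where 1 library set the mean, and Lef1 had 7.60, 10.3 and 9.36 CPM in control and 1.09, 7.77 and 18.5 CPM in mutant samples. Neither passed the threshold, with edgeR unadjusted p = 0.234 and unadjusted p = 0.983.

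Ctnnb1, which encodes beta-catenin, was the most abundant of the Wnt genes, with 906, 942 and 995 CPM in control and 832, 807 and 824 CPM in mutant samples. The groups did not overlap, but the difference was small (log2 change -0.21, SE 0.25; edgeR unadjusted p = 0.425), and 0.011 after the length and GC correction. Apc, the scaffold of the destruction complex, had 31.8, 89.4 and 50.1 CPM in control and 46.3, 92.7 and 99.2 CPM in mutant samples (log2 change 0.48, SE 0.43; edgeR unadjusted p = 0.298). Nkd1, a Dishevelled-binding inhibitor and target gene, had 20.3, 27.8 and 23.5 CPM in control and 6.11, 17.8 and 9.67 CPM in mutant samples, with all mutants below all controls. Its log2 change of -1.08 (SE 0.48; edgeR unadjusted p = 0.0549, adjusted p = 0.261) lay just outside the threshold, and its relative Nkd2 was at 0.12 (unadjusted p = 0.830).

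Genes known both as targets of beta-catenin and as regulators of the pathway were spread over these roles. Of the 9 such genes (Axin2, Dkk1, Lef1, Tcf7, Nkd1, Nkd2, Notum, Znrf3 and Rnf43, a list drawn up after the counts were seen), 3 fell past the threshold, 7 had a log2 change below 0 and 5 lay entirely below control. Over all genes tested these shares were 8.92%, 8204 of 15826 genes and 16.3%, and since the 9 were picked with the counts known, nothing is read from the comparison. Their median log2 change was -0.80, and -0.46 after the length and GC correction, when 1 passed the threshold.

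Per length of transcript, the level of the Wnt genes in control incisors spanned several orders of magnitude. Ctnnb1 (262 ± 12.4 CPM per kb, SD, n = 3), Rspo4 (255 ± 63.8), Wif1 (208 ± 45.1) and Sfrp2 (147 ± 72.2) stood at the top, and each lay within 1 SD of the next. A gap larger than the SDs separated Sfrp2 from Wnt6 (56.2 ± 16.2 CPM per kb), and below that no neighbours in the order differed beyond their spread until Wnt2b and Wnt2 at the bottom. In control, 24 genes exceeded 10 CPM per kb and 4 were under 1 CPM per kb (Wnt10b, Wnt8b, Wnt2b and Wnt2). Wnt10a was sixth in control at 39.7 ± 10.3 CPM per kb, with 19.2 CPM per kb in mutant incisors. Among Frizzled receptors Fzd7 led at 24.3 ± 1.96 CPM per kb and Fzd9 was lowest at 1.70 ± 0.353 CPM per kb.

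**Figure D3:**
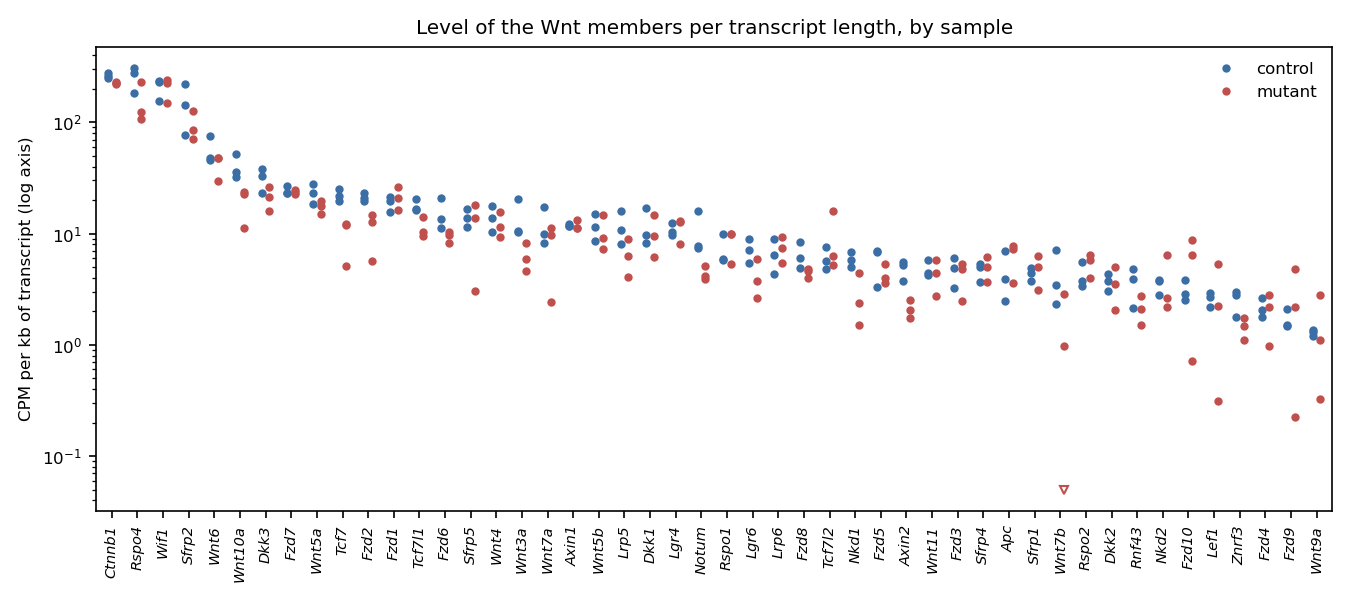
CPM per kb of transcript (log axis) for the Wnt genes at or above 1 CPM per kb in control, ordered by the control mean, with a point for each control (blue) and mutant (red) sample and an open triangle for a sample listed at 0. The first 4 genes lie apart from the rest, and the mutant points spread more widely than the control points towards the low end.

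Over 12336 protein-coding genes that averaged 50 counts or more, the log2 change between the genotypes depended on the transcript. Its median was 0.40 in the quintile of shortest transcripts (median length 1326 bases) and -0.24 in the quintile of longest (6828 bases), and 0.36 in the quintile of lowest GC content against -0.39 in that of highest. Because depth differed with genotype, a trend of the libraries and a trend of the genotype cannot be told apart here. The Wnt genes had a median length of 3623 bases and a median GC content of 53.1%, above the 3247.5 bases and 50.27% of those protein-coding genes. After a correction for both properties, chosen with this trend in view, all 8 genes that fell lay closer to 0, 2 of the 51 were past the threshold as lower (Tcf7 and Fzd3) and 1 as higher (Fzd1), beside 14.7% of all genes in both directions and 8.81% lower. The median log2 change of the 51 genes was then -0.071, beside -0.12 over all genes.

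**Figure D4:**
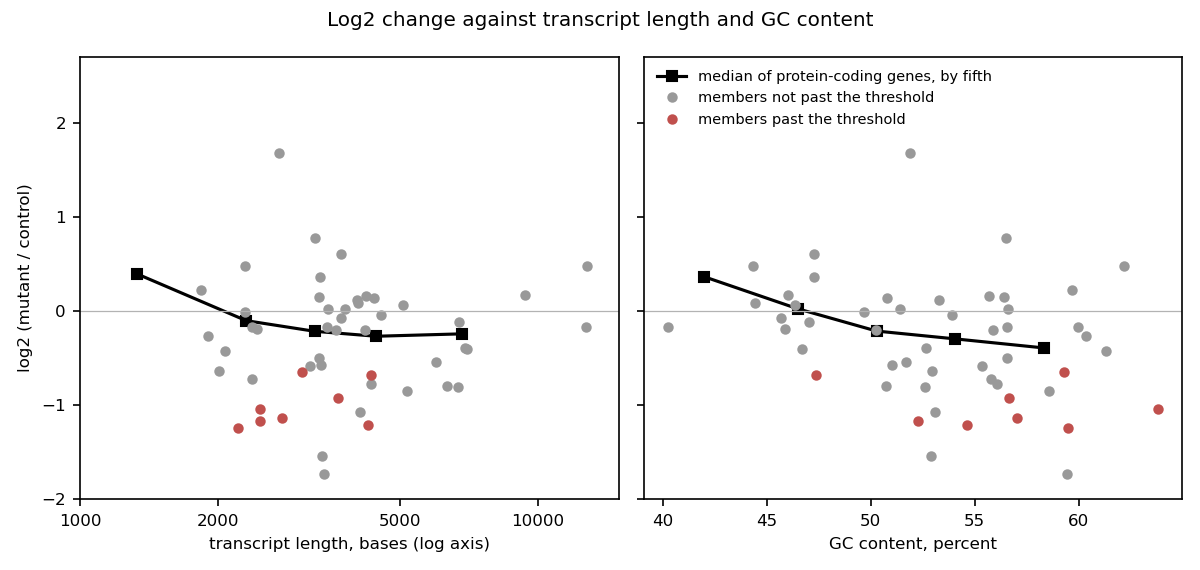
Log2 change of the 51 Wnt genes against transcript length in bases (left, log axis) and GC content in percent (right), red where past the threshold, with black squares for the median of protein-coding genes in each quintile of the property. The black line falls from 0.36 to -0.39 with GC content. The red points lie below its lowest value in both panels, which the 1.5-fold threshold fixed in advance.

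Other genes of the pathway were taken from lists of Wnt secretion factors, co-receptors, planar cell polarity genes, further antagonists, destruction complex members, nuclear partners, target genes and calcium effectors. Of 84 tested, 14 fell and 4 rose past the threshold, beside 8.92% and 10.9% of all genes. Their median log2 change was -0.39, beside -0.040 over all genes, and after the length and GC correction it was -0.17, beside -0.12. Both secretion factors that rose carry cargo out of the endoplasmic reticulum. Tmed5 had 13.4, 9.62 and 10.6 CPM in control and 64.4, 33.04 and 33.5 CPM in mutant samples (log2 change 1.96, SE 0.38; edgeR adjusted p = 0.0423), and Tmed2 had a log2 change of 1.38 (adjusted p = 0.0529). After the length and GC correction the log2 changes were 1.07 for Tmed5 (adjusted p = 0.200) and 1.06 for Tmed2 (adjusted p = 0.0706). Among 11 planar cell polarity genes 4 fell, led by the atypical cadherin Celsr2 (log2 change -1.78, adjusted p = 0.0887) and Prickle1 (-1.19, adjusted p = 0.0540). The median of the 11 was -0.82, and -0.21 after the length and GC correction, when 2 of them passed the threshold. Of 19 Dishevelled and destruction complex genes 5 fell and none rose, and after that correction 4 fell and their median moved from -0.42 to -0.18. They included Gsk3b, a kinase that marks beta-catenin for degradation, at 54.6, 93.8 and 84.9 CPM in control and 36.2, 33.2 and 46.1 CPM in mutant samples (log2 change -1.01, adjusted p = 0.0775 with edgeR), and Csnk1e, a casein kinase that phosphorylates Dishevelled (-1.47, adjusted p = 0.0514). Gsk3b was past the threshold in 16 of 16 alternatives, including the length and GC correction and the fit without control replicate 3.

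Among 13 nuclear partners of beta-catenin, the co-activator Pygo2 (log2 change -1.05, edgeR adjusted p = 0.0578) and the co-repressor Tle4 (-1.48, adjusted p = 0.165) fell and the acetyltransferase Crebbp rose (0.60, adjusted p = 0.248). Crebbp was past the threshold in 4 of 16 alternatives and not with TMM, Pygo2 was not past it after the length and GC correction (-0.55), and Tle4 was not without control replicate 2 or 3. Of 9 further antagonists 1 rose, Sostdc1, which restrains Wnt and BMP signals in teeth, at 78.9, 58.2 and 89.9 CPM in control and 106, 132 and 119 CPM in mutant samples (log2 change 0.66, edgeR adjusted p = 0.170). Its corrected value was 0.14. Of 10 target genes outside the 52, Edar, a receptor of the ectodysplasin pathway, fell, with 0.787, 0.989 and 0.751 CPM in control and 0 counts in all mutant samples. It was past the threshold in 9 of the 11 alternatives that tested it. Of 10 calcium effectors 2 fell, Nfatc3 (log2 change -0.71, edgeR adjusted p = 0.161) and Camk2a, with 1.98, 4.45 and 1.73 CPM in control and 0 counts in all mutant samples. Edar and Camk2a passed the filter on low counts through the control samples alone, so nothing is read from either call. In mutant sample 1, 3 counts are 0.655 CPM, close to the control level of Edar. None of the 8 co-receptors and non-canonical receptors tested passed the threshold.

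**Figure D5:**
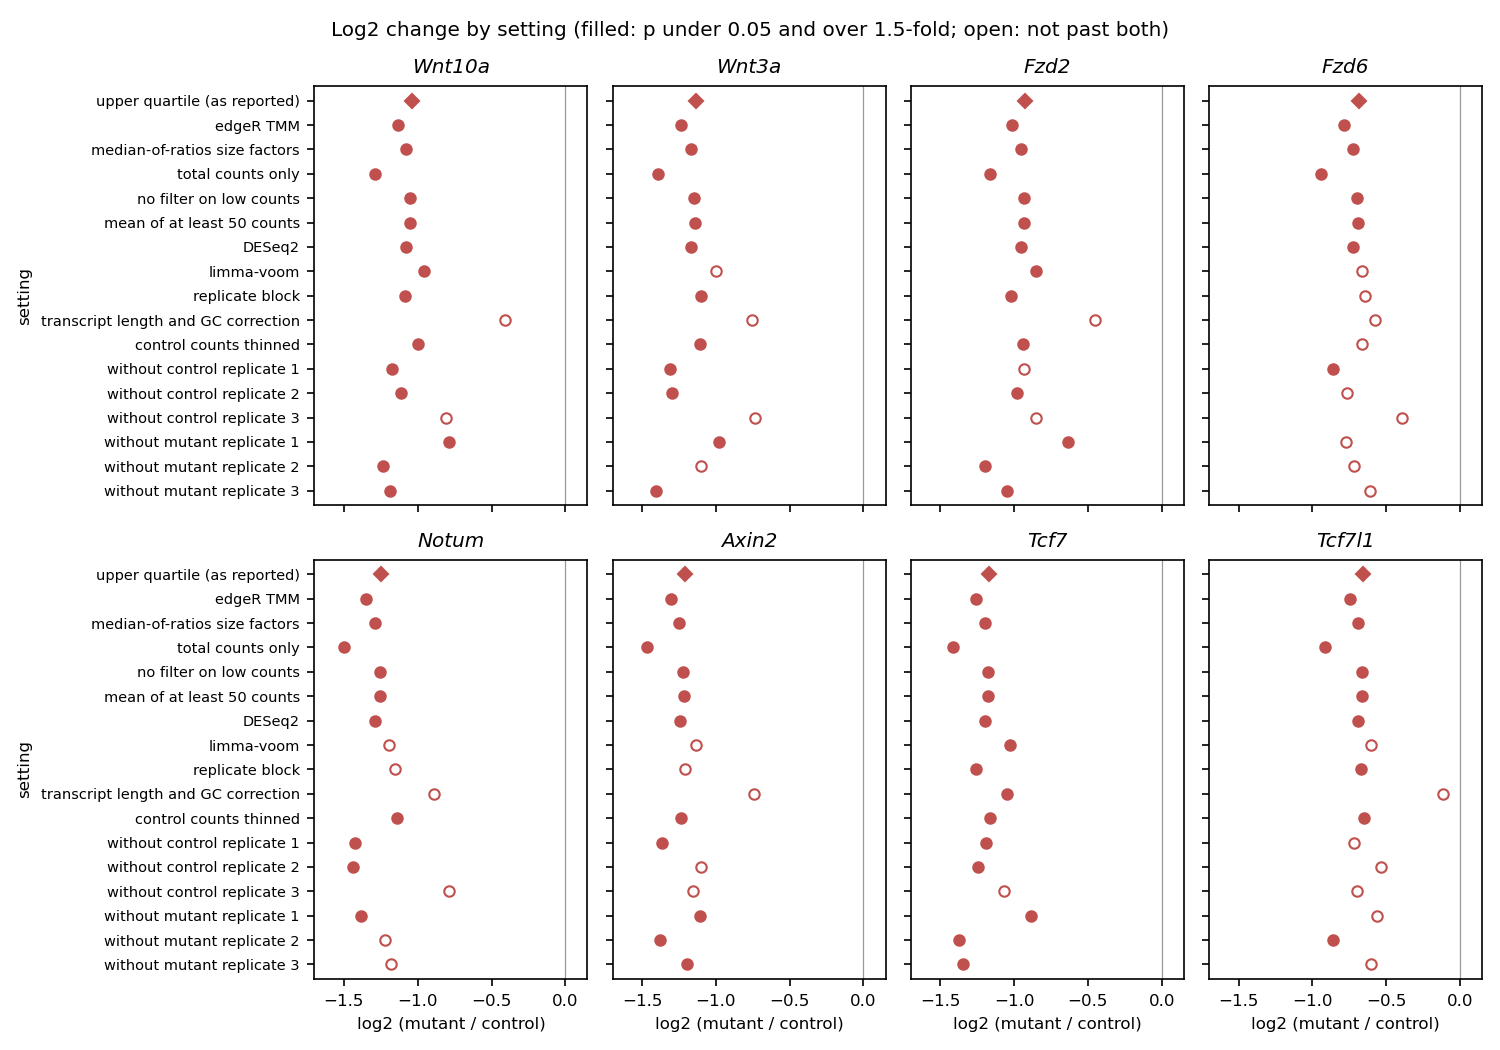
Log2 change of the 8 Wnt genes that fell past the threshold, in the edgeR fit given above (diamond) and under the 16 alternatives (circles), filled where past the threshold and open where not. No point reaches 0, none is filled without control replicate 3, and the length and GC correction leaves Tcf7 filled.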

How the data were processed

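RNA sequencing of proximal incisors from 3 control and 3 mutant samples was analysed, grouped by the labels. The authors aligned single reads of 75 bases to mm10 in Partek Flow (the submitters' processing notes name TopHat2 2.0.8) and deposited estimated counts per gene, not normalized. The counting model and annotation are not given in the sources used here. A deposited table of the authors' own comparison (p-values, ratios and group means) was not used.

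Counts were rounded to whole numbers and tested in edgeR 4.0.16 (R 4.3.3) with upper-quartile scaling, the default filter (minimum count 10, total 15), no term besides genotype, and the quasi-likelihood test (two-sided), adjusted by Benjamini-Hochberg over 15826 genes. Standard errors are approximate. Genes were called at the study's threshold (unadjusted p under 0.05 and over 1.5-fold). DESeq2 1.42.0 and limma 3.58.1 (voom) were alternatives. Gene positions, transcript lengths and GC shares were read from GENCODE release M21 (GRCm38). It held 18637 symbols as written and 221 under a synonym, and 202 were not matched. The fit was tested on simulated data.

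A count of 0 allows up to 3 counts, 0.0825 to 0.0874 CPM in control and 0.256 to 0.655 CPM in mutant samples, for counting error only. Values in every sample are given for genes past the threshold and for the 3 with the highest mean CPM in each role, and up to 2 genes that rose and 2 that fell are named from each list of other pathway genes. Lrp5, Wnt10b, Nkd1, Tcf7l2, Lef1, Dkk1 and Wnt7b were given in every sample after their values were seen. The genes, lists and alternatives were chosen with earlier results of these data known.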

Additional observations from a re-analysis of the deposited data

How the results depend on the processing

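In this section, as reported means the edgeR fit given above, not the comparison made in the paper. The number of Wnt genes past the threshold was 8 as reported, 15 with total counts only and 4 with limma-voom. It was 3 after the transcript length and GC correction, and between 7 and 12 with the other scalings, filters and tools. Leaving out 1 replicate gave 2 (without control replicate 3, Dkk3 and Sfrp2, none of the 8) to 10 (without mutant replicate 2). At an adjusted p under 0.05 DESeq2 gave 1 gene and every other alternative 0. The median log2 change of the 51 genes was -0.48 with total counts only (that of all genes was then -0.30), and ran from -0.52 (without mutant replicate 2) to -0.20 with 1 replicate left out. The other pathway genes past the threshold numbered 18 as reported (14 lower, 4 higher), 26 with total counts only (24 lower, 2 higher) and 23 with TMM (21 lower, 2 higher). With 1 replicate left out they numbered 11 (without control replicate 3) to 21. The share of all genes moved with the setting too. Of all genes tested, 8.92% fell past the threshold as reported, 14.8% with total counts only, 12.6% with limma-voom and 11% with TMM. The share was 8.81% after the length and GC correction, 4.97% without control replicate 3 and 16.5% without mutant replicate 2. Apart from these alternatives' own construction, the cause was not tested.

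The labels do not say whether replicate numbers pair the samples, and the paper mentions pairs without naming them. The correlations of same-numbered samples' deviations were 0.0742, 0.0228 and 0.0883. Differently numbered samples were not set beside them, so these values do not decide whether samples were paired. With the replicate block 9 Wnt genes and 22 other pathway genes passed the threshold. The 9 held 5 of the 8 reported genes, without Axin2, Fzd6 and Notum, and also Lgr6, Lrp5, Nkd1 and Rspo4. In that fit Fzd9 (-0.18), Lef1 (-0.62), Nkd2 (-0.039) and Wnt9a (-0.31) changed sign.

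None of the genes that changed sign had passed the threshold. After the length and GC correction the log2 change was 0.011 for Ctnnb1, 0.039 for Fzd4, 0.048 for Fzd5, 0.40 for Fzd7, 0.18 for Gli1, -0.071 for Sfrp4, 0.00078 for Sfrp5, 0.28 for Wnt11, 0.33 for Wnt4 and 0.25 for Wnt5b. With total counts only it was -0.25 for Axin1, -0.11 for Fzd1, -0.26 for Lef1, -0.20 for Lgr4, -0.098 for Lrp6, -0.11 for Nkd2, -0.024 for Rspo1, -0.16 for Sfrp1, -0.19 for Sfrp4 and -0.050 for Wnt9a. With TMM it was -0.079 for Axin1, -0.066 for Lef1, -0.023 for Lgr4 and -0.0096 for Sfrp4. With limma-voom it was -0.0090 for Fzd10, -0.41 for Fzd9, -0.42 for Lef1, -0.0081 for Sfrp4 and -0.19 for Wnt9a. For Axin1 and Lef1 it was -0.015 and -0.0081 with DESeq2 and -0.016 and -0.0071 with median-of-ratios size factors, and for Lef1 -0.049 with thinned control counts.

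With 1 replicate left out, the log2 change ran from -0.084 to 0.044 for Axin1, -0.57 to 0.18 for Dkk1, -0.42 to 0.19 for Dkk2, -0.030 to 0.30 for Fzd1, -0.39 to 0.081 for Fzd3, -0.46 to 0.21 for Fzd4, -0.082 to 0.025 for Fzd7, -0.51 to 1.01 for Fzd9, -1.02 to 0.52 for Lef1, -0.058 to 0.24 for Lgr4, -0.061 to 0.46 for Lrp6. It ran from -0.53 to 0.38 for Nkd2, -0.11 to 0.36 for Sfrp1, -0.11 to 0.25 for Sfrp4, -0.76 to 0.18 for Sfrp5, -0.069 to 0.87 for Tcf7l2, -0.19 to 0.16 for Wif1, -0.45 to 0.058 for Wnt11, -8.20 to 0.091 for Wnt2b, -0.44 to 0.0020 for Wnt4, -0.53 to 0.048 for Wnt5b, -0.84 to 0.59 for Wnt9a.

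Of all genes past the threshold, 55.0% were higher as reported, 34.9% with total counts only, 40.3% after the length and GC correction, and 40.3% to 62.6% with 1 replicate left out. Genes at an adjusted p under 0.05 numbered 1074 as reported, 229 without a filter, 370 at a mean of at least 50 counts, 508 with the block, 374 with thinned counts, 143 after the correction, 1609 with DESeq2 and 76 to 606 with 1 replicate left out. Depth limits the low ligands most, since 3 counts in mutant sample 1 are 0.655 CPM.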
